A study of Mus musculus with 6 samples.

Results

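The copine genes Cpne1, Cpne2, Cpne3, Cpne4, Cpne5, Cpne7 and Cpne8 were measured in splenic B cells of 3 Sle2 mice and 3 B6 mice, with 1 Illumina BeadChip per mouse. Sle2 mice are congenic animals with a C57Bl/6 background that carry the Sle2 lupus susceptibility locus of chromosome 4 from the NZM2410 strain. B6 mice are the wild type of that background, and both strains share it. The labels give no age, sex or treatment for either strain. The copines were chosen by gene symbol in the annotation of the array, because Cpne4 stood out for its gain in Sle2 B cells. They comprise 7 of 19057 annotated genes and 11 of 45281 probes. The strain difference of Cpne4 is therefore given as a description without a test, and the other 6 genes entered by name.

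Copines are cytosolic proteins with a pair of C2 domains, which bind membrane phospholipids when calcium rises, followed by a domain related to the von Willebrand factor A domain that binds partner proteins. They are conserved from plants and protists to mammals, and are best known as calcium-triggered adaptors that carry partners to membranes. Cpne4 and Cpne6 have been studied mainly in the nervous system of mice, and Cpne1 in human cells as a regulator of the NF-kB subunit p65.

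Median deposited intensities lay between 53.6 and 56.7 on the Sle2 arrays and between 50.4 and 52.1 on the B6 arrays, and 17417 to 17923 probes were detected per array. Detection means that the detection p-value, which ranks a probe against the negative control beads of its array, was under 0.05. Of 8 B cell markers, 6 were on the array and all 6 were detected on at least 3 arrays. Xist, the transcript that silences the inactive X chromosome, was high in Sle2 mouse 3 and B6 mouse 2 (10.93 and 10.13 normalized log2 units by its brightest probe). It was weakly detected in B6 mouse 3 (5.89), so that each strain held arrays with and without it. The brightest probe of the Y-linked gene Eif2s3y was at 8.33, 8.39 and 5.36 log2 units in Sle2 and 8.44, 4.65 and 8.67 in B6. The Eif2s3y probe was detected in Sle2 mouse 3 at its 5.36 log2 units. Sle2 mouse 3 and B6 mouse 3 thus each had signal of both genes, with the dimmer signal from Eif2s3y in the former and from Xist in the latter. The labels call the samples spleen B cells, and in such bulk RNA fewer cells of a type cannot be told apart from less RNA per cell.

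Cpne4 was the copine with clear signal, and it had signal in Sle2 B cells. Its deposited intensities were 398, 386 and 374 in the Sle2 mice and 59.2, 58.0 and 57.6 in the B6 mice. All 3 Sle2 mice lay far above all 3 B6 mice, and mice of 1 strain differed little. The detection p-value of Cpne4 was 0 in each Sle2 mouse, against 0.0534, 0.0534 and 0.0716 in the B6 mice. The B6 values thus missed the detection threshold by a small margin, and at a threshold of 0.1 all 3 B6 mice passed. After background correction and quantile normalization, Cpne4 was at 8.38, 8.43 and 8.31 log2 units in Sle2 and at 4.90, 4.93 and 4.83 log2 units in B6. Sle2 mouse 3, with high Xist, had the lowest of the Sle2 values, and B6 mouse 2, also with high Xist, the highest of the B6 values. With the B6 level taken as a bound, because the probe was not well above background in that strain, Cpne4 was at least 10.9-fold higher in Sle2. For the bound, each B6 value was raised to the dimmest detected probe of its array where it lay below that. The ratio of the deposited means, which still contain background, was 6.62. Cpne4 has 1 probe on the array, so no other probe could be compared with it.

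**Figure D1:**
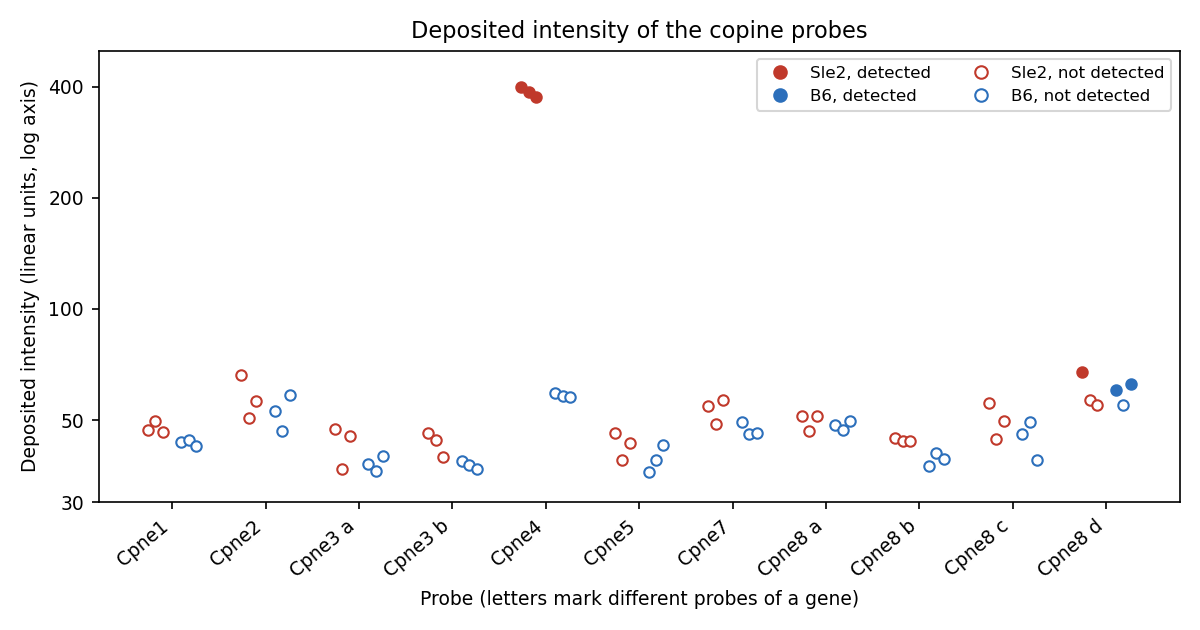
Deposited intensity (linear units on a log axis) of the 11 copine probes in each mouse, with Sle2 mice left of B6 mice and filled points for detected values; intensities of different probes are not comparable as levels. The 3 Sle2 points of Cpne4 lie between 374 and 398, and the points of the 9 probes detected on no array lie between 36.1 and 66.2.

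Detection on every Sle2 array and on no B6 array was rare, at 78 of 45281 probes (0.172%), and the reverse pattern was held by 73 probes (0.161%). Among those 78 probes Cpne4 had the largest bound. The next, picked after their values were seen, were Jph1 and Rundc3b, at least 1.66-fold and 1.65-fold higher in Sle2. Since Cpne4 was chosen for this pattern, its rank is a description of it.

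The upstream sequences of Cpne4 and Cpne8 are shown because these were the copines with a detected probe. Each is the 250 bases before an annotated start, read 5′ to 3′ on the strand of the gene, from RefSeq on mouse assembly GRCm38.p6, with CG dinucleotides in capitals. The arrays do not report which Cpne4 start was used.
Cpne4 upstream start (chr9:104569405-104569654, plus strand): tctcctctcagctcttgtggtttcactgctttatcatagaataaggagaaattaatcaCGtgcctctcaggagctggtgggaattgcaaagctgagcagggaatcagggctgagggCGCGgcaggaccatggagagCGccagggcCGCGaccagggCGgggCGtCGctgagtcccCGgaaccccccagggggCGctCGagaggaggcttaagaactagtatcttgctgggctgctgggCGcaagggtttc
Cpne4 downstream start (chr9:104587808-104588057, plus strand): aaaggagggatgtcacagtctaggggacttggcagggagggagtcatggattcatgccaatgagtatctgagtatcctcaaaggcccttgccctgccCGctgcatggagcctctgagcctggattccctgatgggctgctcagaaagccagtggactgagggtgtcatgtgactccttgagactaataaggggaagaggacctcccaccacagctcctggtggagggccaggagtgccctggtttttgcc
Cpne8 (chr15:90679389-90679638, minus strand): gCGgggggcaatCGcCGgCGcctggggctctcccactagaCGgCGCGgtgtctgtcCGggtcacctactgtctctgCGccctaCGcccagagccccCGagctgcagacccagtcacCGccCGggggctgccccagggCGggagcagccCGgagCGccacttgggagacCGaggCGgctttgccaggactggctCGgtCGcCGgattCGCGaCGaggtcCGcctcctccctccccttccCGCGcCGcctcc
The upstream Cpne4 start held 13 CG dinucleotides and the downstream start held 1, against a median of 6 over 32851 windows of the same length. Of all windows, 70.6% had at most as many as the upstream Cpne4 window and 18.8% at most as many as the downstream one. Cpne8 held 28, Cpne2 held 32, Cpne5 held 27 and Cpne1 held 11 in their own windows, and 5 of the 7 copines had an entry. The GC box core GGGCGG, searched on both strands and holding 1 CG itself, was present in the upstream Cpne4 window and in those of Cpne2, Cpne5 and Cpne8, as in 32.7% of all windows. Neither the TATA box core TATAAA (12.4% of all windows) nor the octamer ATGCAAAT (1.6%), which is known from immunoglobulin promoters, was found on either strand of the copine windows.

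Cpne8 was the other copine with any detected value, and its signal was at the edge of background. It has 4 probes, of which 3 were detected on no array. The deposited intensities of the fourth were 67.6, 56.8 and 54.9 in the Sle2 mice and 60.3, 54.8 and 62.6 in the B6 mice. Its detection p-values were 0.0449, 0.114 and 0.139 in Sle2 and 0.0417, 0.0855 and 0.0267 in B6. It was thus detected in 1 Sle2 mouse and 2 B6 mice, and the strains overlapped. On the normalized scale it averaged 4.78 ± 0.17 log2 units in Sle2 and 4.92 ± 0.13 log2 units in B6 (SD, n = 3 each). The difference of -0.15 log2 units (SE 0.121, 95% interval -0.42 to 0.13) did not pass in the limma fit over all probes (adjusted p = 0.564). At a detection threshold of 0.01, Cpne4 was the only copine left.

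Of the 6 copines other than Cpne4, Cpne8 alone passed the filter on dim probes and could be tested. By limma 0 of 1 was called at an adjusted p under 0.05, and 0 at an unadjusted p under 0.05, where 1.04% of 9297 tested genes were called and 16.9% had an unadjusted p under 0.05. The interval of Cpne8 holds small differences either way, with an upper end of 0.13 log2 units. Its probe lay at the edge of background, so the interval does not bound a change of the transcript. The Cpne4 difference, for which Cpne4 was chosen, was 3.49 log2 units. No probe of the remaining copines rose above background in either strain, so the filter left them out. Fitted without the filter, 0 of the 6 copines, Cpne8 included, were called by limma and 0 had an unadjusted p under 0.05, with a lowest adjusted p of 0.648 for Cpne7, and values inside the background give no measure of a gain.

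Those copines were Cpne1, Cpne2, Cpne3, Cpne5 and Cpne7, with 6 probes between them and none detected on any of the 6 arrays. By comparison, 54.9% of all annotated genes had a probe detected on at least 1 array, while 2 of 7 copines did. Cpne2 came nearest to detection, with a lowest detection p-value of 0.0545 in Sle2 mouse 1. Its deposited intensities were 66.2, 50.8 and 56.2 in Sle2 and 53.0, 46.8 and 58.3 in B6, and the strains overlapped. Cpne7, which is known for a role in odontoblast differentiation in mice, had a lowest detection p-value of 0.107 in Sle2 mouse 3. Its intensities were 54.6, 48.9 and 56.8 in Sle2 and 49.5, 46.0 and 46.0 in B6, and the lowest Sle2 mouse lay below the highest B6 mouse.

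Cpne1 lay well inside the background, with detection p-values from 0.321 to 0.639. Its intensities were 47.1, 49.8 and 46.4 in Sle2 and 43.7, 44.1 and 42.5 in B6. These did not overlap between the strains, while the normalized values did. Cpne3, which binds the receptor ErbB2 in human cells, is the copine on chromosome 4, the chromosome of the Sle2 locus. Both of its probes were inside the background. The intensities of 1 overlapped, at 36.8 to 47.2 in Sle2 and 36.5 to 39.9 in B6. Those of the other did not, at 39.8 to 46.2 in Sle2 and 36.9 to 38.8 in B6. Cpne5 was at 46.0, 39.0 and 43.4 in Sle2 and 36.1, 39.0 and 42.7 in B6, and the strains overlapped. Cpne1, Cpne2, Cpne5 and Cpne7 have 1 probe each, and a probe that responds poorly would give the same values as a transcript of low abundance.

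**Figure D2:**
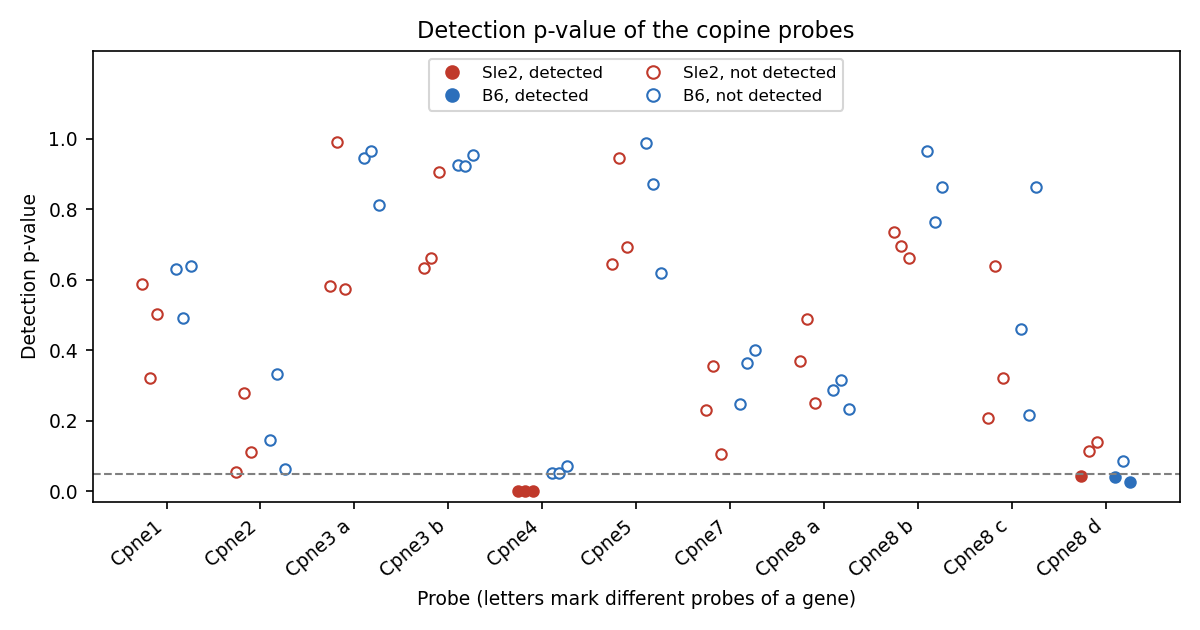
Detection p-value of each copine probe in each mouse, with Sle2 mice left of B6 mice, filled points for detected values and a dashed line at 0.05. The 3 B6 points of Cpne4 lie just above the line, between 0.0534 and 0.0716, and points under the line belong to Cpne4 in Sle2 and to 1 Cpne8 probe.

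All 9 undetected copine probes had a higher mean deposited intensity in Sle2, but so did 78.8% of the 24796 probes detected on no array, whose brightness differs between the arrays before normalization. After normalization 8 of the 9 had a higher mean in Sle2, against 49.3% of those probes. The differences of the 9 lay between -0.04 and 0.10 log2 units, inside the background, and give no measure of a gain. Several of the 9 are probes of the same gene, Cpne3 or Cpne8. In deposited intensity the 3 Sle2 mice lay above the 3 B6 mice for 3 of the 10 copine probes other than that of Cpne4. After normalization they did so for 2 of the 9, a Cpne3 probe and a Cpne8 probe, both below background in every mouse. The share in normalized values was 14.7% over all tested genes, which unlike these probes passed the filter on dim probes. The share over the undetected probes was not computed. The copines outside the list, Cpne6 and Cpne9, have 3 probes, and 0 of them were detected.

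Among the marker lists of cell types, only that of marginal zone B cells had sums that did not overlap between the strains. Its summed normalized intensity over 8 of 8 tested genes was 4312 to 4682 in Sle2 and 2792 to 3348 in B6. The Sle2 mean was higher for 7 of the 8, with a median difference of 0.59 log2 units. By limma 2 of the 8 passed, each with a higher level in Sle2. The share over all tested genes was 1.04% for either direction and 0.656% for a higher level in Sle2. The marker lists were chosen with earlier results of these data known, so these counts are a description. As a single-gene comparison, 14.7% of all tested genes had every Sle2 mouse above every B6 mouse. The sums of the 10 other marker lists (B, T, NK, plasma and dendritic cells, monocytes, neutrophils, erythroid cells, platelets and follicular B cells) overlapped between the strains. T cell markers, for example, summed to 1625 to 1890 in Sle2 and to 1624 to 1734 in B6, and Cd4, Cd8a and Cd5 were not detected. Of the 8 tested T cell markers 6 had a higher Sle2 mean (median difference 0.36 log2 units). So had 6 of 6 NK cell markers (0.32), 6 of 6 plasma cell markers (0.30), 5 of 6 monocyte and macrophage markers (0.12), 4 of 5 neutrophil markers (0.30), 2 of 3 dendritic cell markers (0.40) and 4 of 6 erythroid markers (0.47), with 0 called by limma in any of these lists, against a median of 0.02 over all tested genes. Platelet markers (1 of 7 higher, -0.29) and follicular B cell markers (2 of 6 higher, -0.22) had negative medians. Erythroid markers summed to 16090 to 21240 in Sle2 and to 12760 to 23290 in B6. The part of these cell types in the Cpne4 difference was not tested.

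The genes whose values ran most like those of Cpne4 across the 6 arrays were Fgr, Faah, Ube2e2, Alad and Hyi. Likeness was the root mean square difference of values centred on each gene's own mean, and it follows the size of the strain difference. It was 0.33 log2 units for Fgr, a Src family kinase, 0.69 for Faah, which breaks down the endocannabinoid anandamide, 0.93 for Ube2e2, 0.95 for Alad and 0.95 for Hyi, against a median of 1.74 over 9296 genes. Hyi had another tested probe, with a difference of -0.14 log2 units. Fgr was nearest, with 7.77, 7.93 and 8.01 log2 units in Sle2 and 4.71, 4.63 and 5.25 log2 units in B6. Fgr, Faah, Alad and Hyi lie on chromosome 4 and Ube2e2 on chromosome 14, while Cpne4 lies on chromosome 9.

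The 5 tested genes on each side of Cpne4 on chromosome 9 were then examined, in the same comparison of strains that brought Cpne4 forward. By their brightest tested probe 4 of the 10 were called by limma, 1 higher and 3 lower in Sle2. Of all tested genes 1.04% were called, 0.656% higher and 0.387% lower. Among the 3 lower was Pik3r4, which passed the filter through the B6 arrays alone, where it was high. Next to Cpne4 on one side was Acpp, an acid phosphatase gene, with 5.16, 5.12 and 5.22 log2 units in Sle2 and 4.61, 4.84 and 4.97 log2 units in B6. It was detected in 3 Sle2 mice and 1 B6 mouse, the strains did not overlap, and its difference of 0.36 log2 units (SE 0.114) was not called (adjusted p = 0.182). Next on the other side was Mrpl3, a mitochondrial ribosomal protein gene, at 10.14, 10.20 and 10.09 log2 units in Sle2 and 9.63, 9.53 and 9.65 log2 units in B6. This probe rose by 0.54 log2 units (SE 0.092, adjusted p = 0.0392). The other Mrpl3 probe differed in the opposite direction, by -0.56 log2 units (adjusted p = 0.0721), and with the mean of both the difference was -0.01 (adjusted p = 0.959).

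The called decreases were Tmem108, a transmembrane protein gene, at -0.72 log2 units (adjusted p = 0.0464), Aste1 at -0.69 log2 units (adjusted p = 0.0177) and Pik3r4, the regulatory subunit of the class III phosphoinositide 3-kinase, at -0.80 log2 units (adjusted p = 0.0195). Pik3r4 was detected in 3 of 3 B6 mice and in no Sle2 mouse, the reverse of Cpne4, and was at least 1.29-fold lower in Sle2. It entered the fit only through the strain where it was high, so its call is a description. With no filter Pik3r4 was not called (limma adjusted p = 0.0555). The probes of Atp2c1, a calcium and manganese pump of the Golgi, disagreed. Its brighter probe differed by -0.02 log2 units (adjusted p = 0.953), while its dimmer probe was at 4.32, 4.33 and 4.39 log2 units in Sle2 and 6.49, 6.50 and 6.36 log2 units in B6. The dimmer Atp2c1 probe was detected in 3 B6 mice and no Sle2 mouse and was at least 2.89-fold lower in Sle2. This probe too passed the filter only through the B6 arrays, so its difference is given without a test. Bfsp2 (-0.48), Ackr4 (0.24), Nudt16 (0.36) and Cdv3 (-0.02) were not called. The count of 4 called neighbours was 1 when Sle2 mouse 1, Sle2 mouse 2 or B6 mouse 2 was left out, and 0 when Sle2 mouse 3 or B6 mouse 3 was left out. In those 5 fits 28 to 56 genes were called over the whole array, against 97 with all mice. Without B6 mouse 1 the neighbour count was 3, with 143 genes called. With single mice left out the differences kept their signs, from -0.75 to -0.65 for Aste1, -0.87 to -0.70 for Pik3r4, -0.84 to -0.65 for Tmem108 and 0.50 to 0.56 for the brighter Mrpl3 probe. The neighbour count was 2 with the mouse number as a block and 2 with no filter. In each of these fits the dimmer Atp2c1 probe kept its sign, at -2.15 to -2.08 log2 units. With the mean of all kept probes of each gene, the neighbour count was 3. Mrpl3 and Tmem108 (limma adjusted p = 0.0501) were then not called. Atp2c1, whose mean holds the dimmer probe, was then called, at -1.06 log2 units.

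**Figure D3:**
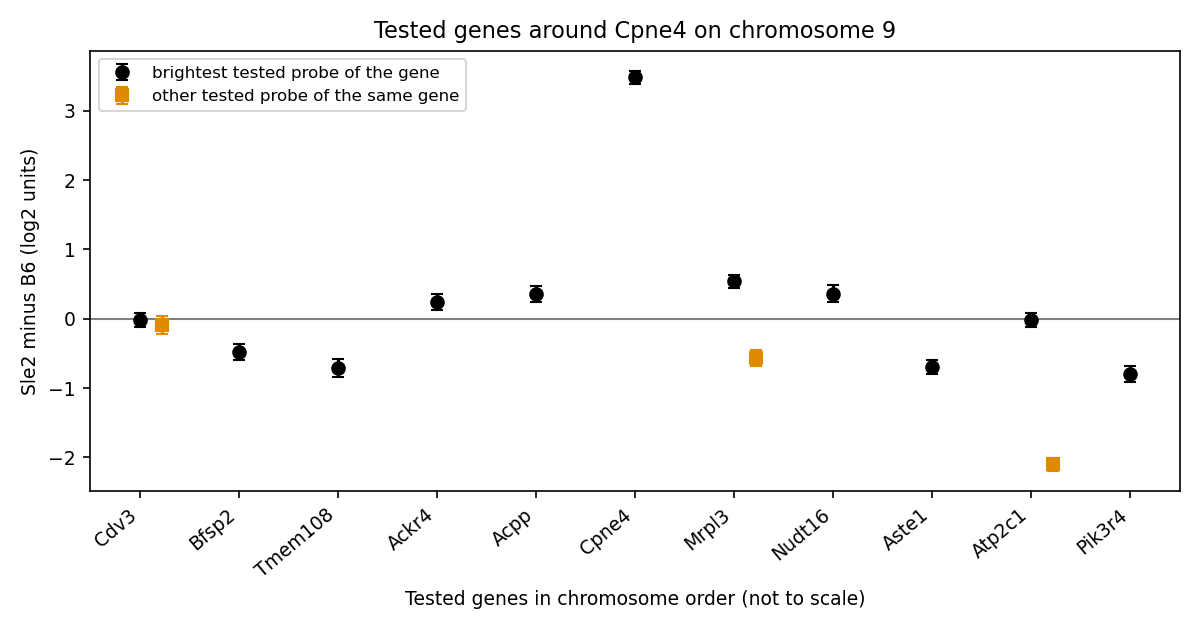
Sle2 minus B6 difference (log2 units, bars are limma's SE) of the 5 tested genes on each side of Cpne4, in chromosome order but not to scale, with squares for further tested probes of a gene. Cpne4 stands at 3.49, its neighbours by brightest probe lie between -0.80 and 0.54, and the squares of Mrpl3 (-0.56) and Atp2c1 (-2.10) lie apart from the circles of the same genes.

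Other proteins that bind phospholipids in a calcium-dependent way, or carry C2 domains, were examined beside the copines. Of 77 listed genes in the annexin, synaptotagmin, ferlin, C2 signalling enzyme and copine partner lists, 37 were tested. By limma 0 were called higher and 0 lower, against 1.04% of all tested genes, and 7 had an unadjusted p under 0.05, a share close to the 16.9% of all tested genes. None of the probes of these lists was detected on every Sle2 array and no B6 array. Outside the lists, and picked after their values were seen, the C2 domain genes Rims2 (at least 1.27-fold higher in Sle2) and Mctp2 (at least 1.08-fold higher) had that pattern.

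Annexins, which bind membranes through their own calcium-binding repeats, had 8 tested of 12, with 0 called and a median difference of 0.13 log2 units, against 0.02 over all tested genes. It was 0.03 with no filter, over all 12, 0.05 with the strict filter and 0.29 with median scaling. The smallest p-values were those of Anxa3 (0.61 log2 units, adjusted p = 0.189), Anxa4 (0.30, adjusted p = 0.225) and Anxa6 (-0.31, adjusted p = 0.257). The synaptotagmin group, calcium sensors and tethers of vesicle traffic, had 7 tested of 28, with 0 called and a median of 0.14 log2 units. Doc2g (0.44, adjusted p = 0.16), Esyt1 (-0.22, adjusted p = 0.257) and Sytl3 (0.33, adjusted p = 0.421) had the smallest p-values there. The other tested probes of Esyt1 (0.14) and Sytl3 (-0.20) differed in the opposite direction. With the mean of all kept probes of each gene, the median of this group was 0.06. The median of this group was -0.01 without Sle2 mouse 2 and also with no filter.

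The ferlins, large C2 proteins of membrane repair and fusion, had 2 tested of 6, Dysf at -0.02 (SE 0.219) and Myof at 0.01 log2 units (SE 0.232), with 0 called. With single mice left out Dysf ran from -0.28 (without B6 mouse 2) to 0.14 (without B6 mouse 1) and Myof from -0.22 (without B6 mouse 1) to 0.24 (without B6 mouse 3). C2 domain signalling enzymes had 17 tested of 25, with 0 called and a median of -0.02 log2 units. Nedd4, a ubiquitin ligase whose C2 domain binds membranes, was at 0.46 log2 units (adjusted p = 0.125), Plcb3 at -0.25 (adjusted p = 0.218) and Nedd4l at 0.20 (adjusted p = 0.33). Reported copine partners had 3 tested of 6, with 0 called and a median of 0.06 log2 units. They were Map2k1, the kinase that activates ERK, at 0.15 log2 units (adjusted p = 0.475), Rela, the NF-kB subunit p65, at 0.06 (adjusted p = 0.779) and Ppp5c, a serine/threonine phosphatase, at 0.04 (adjusted p = 0.864).

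**Figure D4:**
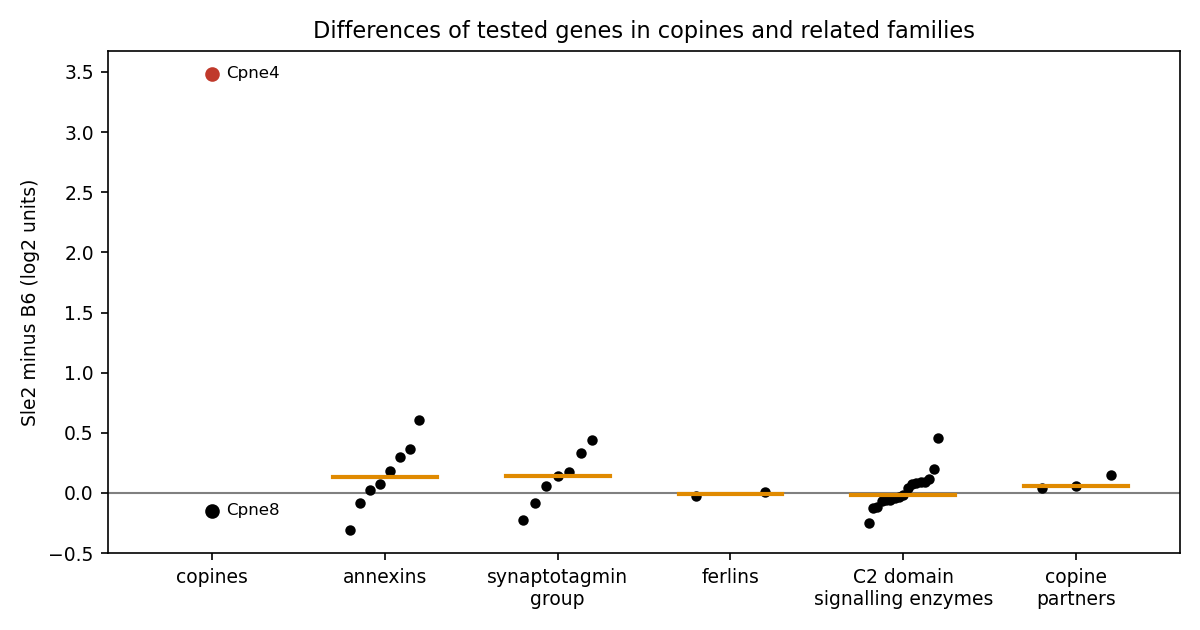
Sle2 minus B6 difference (log2 units) of each tested gene, by its brightest tested probe, in the copines and in 5 related gene lists, with a line at the median of each list. Cpne4 stands at 3.49 and Cpne8 at -0.15, and the genes of the other lists lie between -0.31 and 0.61.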

How the data were processed

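Biotin-labelled RNA of splenic B cells was measured on Illumina arrays, 1 per mouse, per the labels. Strain and mouse number came from the sample titles. The deposited intensities came from GenomeStudio (per the submitters' processing notes) and, judged from the values, were linear, with no background subtraction or normalization by the authors. Per the file headers, each deposited intensity has a detection p-value beside it. A series matrix of the authors gave quantile-normalized linear intensities, again judged from the values.

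Of 45281 probes, 34885 had 1 gene symbol in the supplied annotation, 18 several and 10378 none, and 34807 were renamed through a RefSeq table of GRCm38.p6, also used for gene order. The deposited files name no build.

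Intensities were corrected by normexp from the 936 negative controls implied by the detection p-values (offset 16), then quantile-normalized on the log2 scale by neqc in limma 3.58.1 (R 4.3.3). The filter kept probes detected (p under 0.05) on 3 or more of the 6 arrays (17861 probes, 9297 genes, each by its brightest kept probe). Strains were compared with lmFit and eBayes, with two-sided p-values adjusted by Benjamini-Hochberg across every kept probe and a threshold of 0.05. The number of arrays limits the precision. The fit was tested on simulated data.

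The copines and the gene and marker lists were chosen with earlier results of these data known. Named genes were all copine probes, the 5 genes most like Cpne4, its 5 tested neighbours on each side and, per list, called members and the 3 smallest p-values. Alternatives changed the background correction, scaling, values, filter, prior, array weights, probe choice and mouse number as a block, or left out a mouse. Other detection thresholds were added after the data were seen.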

Additional observations from a re-analysis of the deposited data

How the results depend on the processing

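The Cpne4 difference kept its sign under all 14 alternatives that gave a value, from 2.54 to 3.57 log2 units. It was 2.58 when background was not corrected and 2.54 from the series matrix, both of which leave background in the B6 level. Cpne8 stayed between -0.24 and -0.08 and uncalled (adjusted p = 0.468 to 0.843). The strict filter, which left 7683 genes, kept no copine. It dropped Cpne4 too, although Cpne4 passed a detection threshold of 0.01 on the 3 Sle2 arrays, but on 0 B6 arrays. With no filter all 6 copines other than Cpne4 could be fitted, and 0 were called by limma, with a lowest adjusted p of 0.648 for Cpne7. Copines with a detected probe numbered 2, 1 at a detection threshold of 0.01 and 3 at 0.1.

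Over all genes, 97 were called, against 173 without background correction, 245 with median scaling, 187 with the series matrix values, 56 with no filter, 285 with a trended robust prior and 28 to 143 with single mice left out. Median scaling moved the median of all genes to 0.14 log2 units, and that of annexins to 0.29 and C2 signalling enzymes to 0.11. Called neighbours of Cpne4 numbered 4, against 2 with no filter and 0 to 3 with single mice left out. The Mrpl3 difference reversed with the mean of its kept probes (-0.013), since its probes had opposite signs. No listed related gene was called in any of 75 counts under the alternatives.

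Deviations of same-numbered mice correlated by 0.2, 0.13 and 0.04, and those of differently numbered mice by -0.21 to 0.07. With 3 mice per strain, these values cannot settle whether the mouse numbers pair the arrays. With the mouse number as a block, 72 genes and 2 neighbours were called, with Cpne4 at 3.49 and Cpne8 at -0.15. The cause of these changes was not tested.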
